A study of Danio rerio with 9 samples.

Results

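The genes described here are those of purine breakdown and urate transport in the zebrafish kidney. The set was named as 10 gene symbols, *xdh*, *uox*, *urad*, *allc*, *gda*, *pnp4a*, *pnp5a*, *pnp5b*, *slc2a9l1* and *slc2a9l2*, and its members were found as the rows of the gene count table that carry one of these symbols. Of the 10, 9 had a row among the 30628 genes of the table, and *slc2a9l2* was not matched under that symbol. The set was proposed with the difference between male and female kidneys in view, so that the sex difference of its members is given as a description with no test.

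Purines are the adenine and guanine bases of nucleotides. In animals, purine nucleoside phosphorylases (the *pnp* genes) split inosine and guanosine to hypoxanthine and guanine, guanine deaminase (*gda*) turns guanine into xanthine, and xanthine dehydrogenase (*xdh*) oxidises hypoxanthine and xanthine to urate. Fish, unlike humans, go on to break down urate with urate oxidase (*uox*), the decarboxylase encoded by *urad* and allantoicase (*allc*), while in mammals the urate transporter SLC2A9 moves urate across kidney tubule cells and the liver is the main site of urate production.

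The study asked which genes are expressed in the adult zebrafish kidney and whether they differ between the sexes. RNA of kidneys from 12-month-old fish of the wild-type WIK strain was sequenced in 4 male and 5 female libraries. Both sexes carried the same wild-type (WT) genotype and no treatment is named, so sex is the only factor that the labels supply. The male libraries are called M1, M2, pkd1M1 and pkd1M4 here and the female libraries F1, F2, F3, F4 and F6, after the names of their columns.

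Deposited estimated counts summed to between 24902978 and 52986838 per library, with a median of 33388023. They were scaled here to CPM, the counts of a library relative to its total after TMM normalization between libraries, and males and females were compared by the quasi-likelihood test of edgeR over 22148 genes with enough counts. A gene was called where its adjusted p (Benjamini-Hochberg) was under 0.05 and its log2 fold change was above 1.5 in size, where a positive value is higher in males, and the median log2 fold change of all genes tested was -0.03. Markers of the proximal tubule, the segment that handles urate in mammals, were present in all libraries. Their summed level was 1930 to 3051 CPM in males and 1269 to 3694 CPM in females. The 3694 CPM was that of F6 alone. The other females held 1269 (F4) to 1967 CPM (F3), and of these only F3 lay above the lowest male, M2. Of the 10 markers, 0 were called between the sexes (1 had an adjusted p under 0.05 in edgeR's quasi-likelihood test). The table names 2 male libraries, and no female library, with pkd1 beside the mark of the wild type. What this name marks is not stated, and as it occurs in males only, it is partly tied to sex. F1 held a summed level of oocyte markers of 2109 CPM, against at most 128 CPM in any other library. The sources do not say whether each library holds the kidneys of 1 fish, so p-values measure the spread between these libraries.

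Of the 9 members with a row, 7 had enough counts to be tested and 3 of these passed both thresholds, where 6.54% of all genes tested were called. These were *slc2a9l1*, higher in males, as 3.48% of all genes were, and *gda* and *pnp5a*, higher in females, as 3.06% of all genes were. The same 3 members did not overlap between the sexes, which held for 16.5% of all genes tested. All male libraries lay above all female libraries in 1 member and in 8.42% of all genes, and below them in 2 members and in 8.06% of all genes. The members were chosen by this contrast, so nothing is read from these counts. The remaining 4 tested members overlapped between the sexes.

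**Figure D1:**
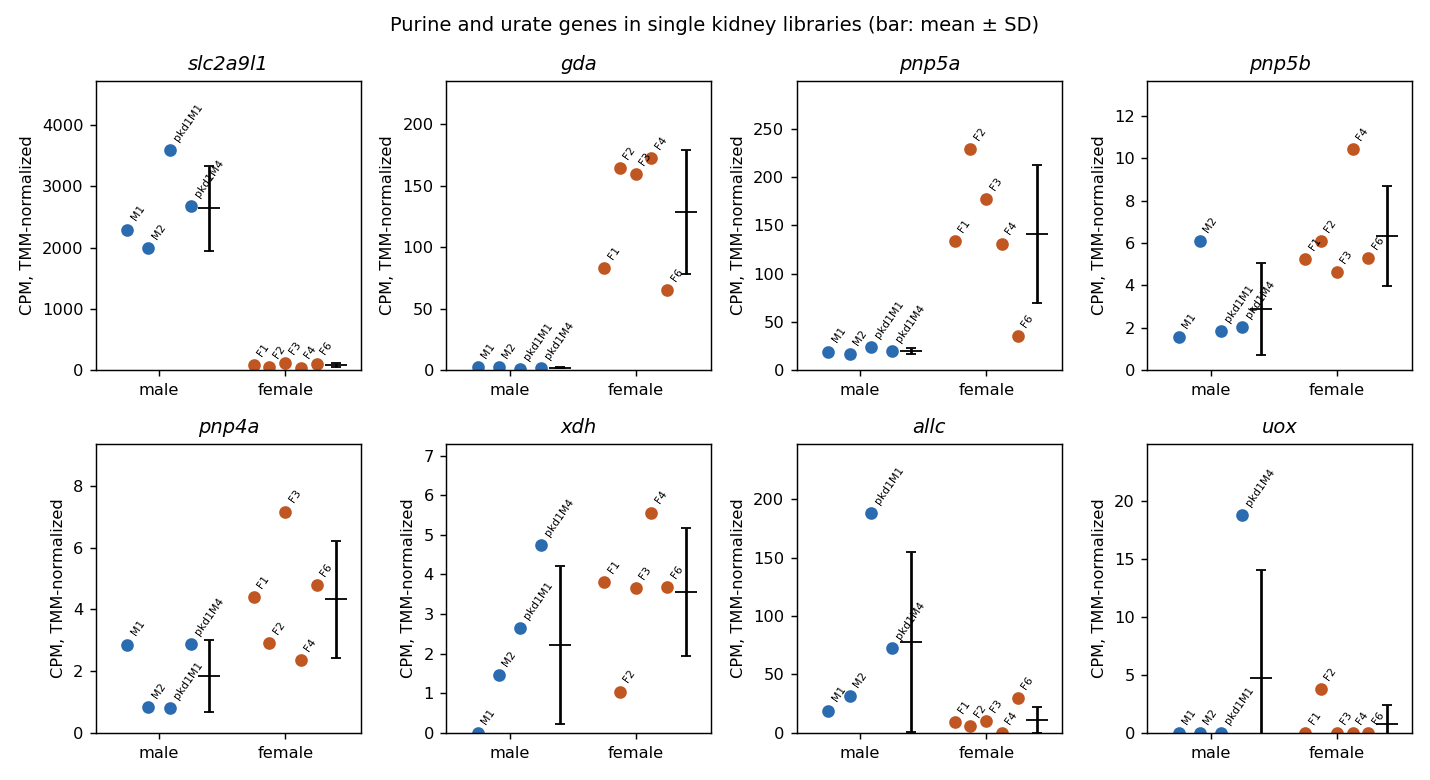
Level of 8 purine and urate genes in each kidney library, in TMM-normalized CPM, with 4 male libraries in blue and 5 female libraries in red, and the mean ± SD of each sex as a bar whose part below 0 is not drawn. Males and females did not overlap in *slc2a9l1*, *gda* and *pnp5a*, and *uox* was above 0 in pkd1M4 and F2.

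Urate transport was represented by *slc2a9l1*, a gene named for its likeness to the mammalian urate transporter gene SLC2A9, on chromosome 11 from 19490335 to 19501440. Its level was 1987 CPM in M2, 2293 in M1, 2682 in pkd1M4 and 3594 in pkd1M1. The female libraries held 42.2 CPM in F4, 54.3 in F2, 89.4 in F1, 109 in F6 and 117 in F3. The lowest male library was thus far above the highest female library. The means were 2639 ± 697 CPM in males (SD, n = 4) and 82.3 ± 32.8 CPM in females (SD, n = 5), a level 32.1-fold higher in males and a log2 fold change of 5.004 with a standard error of 0.36. Leaving out each library in turn gave log2 fold changes from 4.82 to 5.16. In bulk tissue, fewer cells of a type and less RNA per cell cannot be told apart.

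The gene next to *slc2a9l1* was called in the same direction. This was *psmd6*, which encodes a subunit of the proteasome, the complex that degrades tagged proteins. It begins 857 bases beyond *slc2a9l1*, on chromosome 11 from 19502297 to 19511548. It averaged 766 ± 378 CPM in males (SD, n = 4) and 90.3 ± 23.8 CPM in females (SD, n = 5), with no overlap and a log2 fold change of 3.08 with a standard error of 0.32 (adjusted p = 0.000425, from the quasi-likelihood test of edgeR with Benjamini-Hochberg adjustment, as for all adjusted p-values below). On the other side, *prickle2b*, a gene of planar cell polarity, lay 18577 bases away with a log2 fold change of 0.43 and was not called. Among the nearest tested genes on both sides of every member, *psmd6* was the only one called. The library kit does not mark strand, so reads where genes overlap cannot be assigned by strand. The annotated coordinates of *slc2a9l1* and *psmd6* do not overlap.

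The genes whose levels followed *slc2a9l1* most closely over the 9 libraries were *acot17*, *dhrs9* and *stard10*. The Pearson correlations of log2(CPM + 0.5) were 0.995 for *acot17*, 0.993 for *dhrs9* and 0.993 for *stard10*. All 4 genes share the difference between the sexes, and after the mean of each sex was subtracted the correlations were 0.950, 0.818 and 0.862. *acot17*, a member of the acyl-CoA thioesterase family, had 934 CPM in males and 20.4 CPM in females.

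Other genes of urate, organic anion and nucleoside transport and their scaffolds were higher in males where they were called. Of 31 listed genes, 21 were tested, and 6, or 28.6%, were higher in males and 0 in females, against 3.48% and 3.06% of all genes. Without the limit on the fold change 9 had an adjusted p under 0.05, among them *slc29a2*, which was higher in females at -1.25 (adjusted p = 0.00574). The median log2 fold change of the list was 0.83, against -0.03 over all genes. The largest change was that of *slc5a8l*, a relative of the sodium-coupled monocarboxylate transporter gene SLC5A8, on chromosome 6 from 49063289 to 49078702, with 72.8 ± 24.3 CPM in males (SD, n = 4) and 7.83 ± 1.75 CPM in females (SD, n = 5). This is a log2 fold change of 3.22 with a standard error of 0.27 (adjusted p = 0.000194). *abcc4*, which encodes an export pump that carries urate among other organic anions in mammals, lies on chromosome 6 from 7322587 to 7390458. It had 114 ± 54.0 CPM in males (SD, n = 4) and 17.8 ± 3.89 CPM in females (SD, n = 5), which gave a log2 fold change of 2.68 with a standard error of 0.30 (adjusted p = 0.000603). The nucleoside transporter gene *slc29a1a*, on chromosome 13 from 46830736 to 46917098, had 206 ± 22.3 and 67.1 ± 14.7 CPM, which gave a log2 fold change of 1.62 with a standard error of 0.19 (adjusted p = 0.000779).

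The others called were genes of the organic anion transporter family. *slc22a6l*, a relative of the main organic anion uptake transporter of the mammalian proximal tubule, lies on chromosome 21 from 28478663 to 28494322. It had 1131 ± 198 CPM in males (SD, n = 4) and 179 ± 142 CPM in females (SD, n = 5). This gave a log2 fold change of 2.66 with a standard error of 0.48 (adjusted p = 0.00542). With each library left out the change ranged from 2.44 (without F2) to 3.26 (without F6). *slc22a7b.2*, on chromosome 17 from 21994043 to 22001935, had 413 ± 87.1 and 116 ± 62.7 CPM, which gave a log2 fold change of 1.83 with a standard error of 0.37 (adjusted p = 0.00933). Its neighbour *slc22a7b.3*, on chromosome 17 from 21982617 to 21993707, had 11.4 ± 8.44 and 1.81 ± 1.84 CPM, which gave a log2 fold change of 2.67 with a standard error of 0.72 (adjusted p = 0.0338). The copy on the other side, *slc22a7b.1*, had 566 ± 193 and 255 ± 159 CPM. It overlapped between the sexes and was not called, at 1.15 (adjusted p = 0.107). Reads shared by these adjacent copies were divided by estimation, so the value of each copy is uncertain, and *slc22a7b.3* was called in 2 of the 9 fits with a library left out, where its log2 fold change ranged from 2.01 (without pkd1M4) to 3.51 (without F6). Males and females did not overlap in any of the 6 called transport genes, as in 16.5% of all genes tested. The call was made on the same libraries and favours such genes, so this adds nothing to it. Without the 2 male libraries named with pkd1, *slc22a6l*, *slc22a7b.2* and *slc22a7b.3* were not called, and the other 3 were. Distal tubule markers moved in the same direction, with sums of 856 to 1414 CPM in males and 317 to 803 CPM in females. Of 7 tested, 3 were called as higher in males and all 7 had an adjusted p under 0.05, with log2 fold changes from 1.21 to 2.27. The part of distal tubule cells in the levels of the transport genes was not tested.

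**Figure D2:**
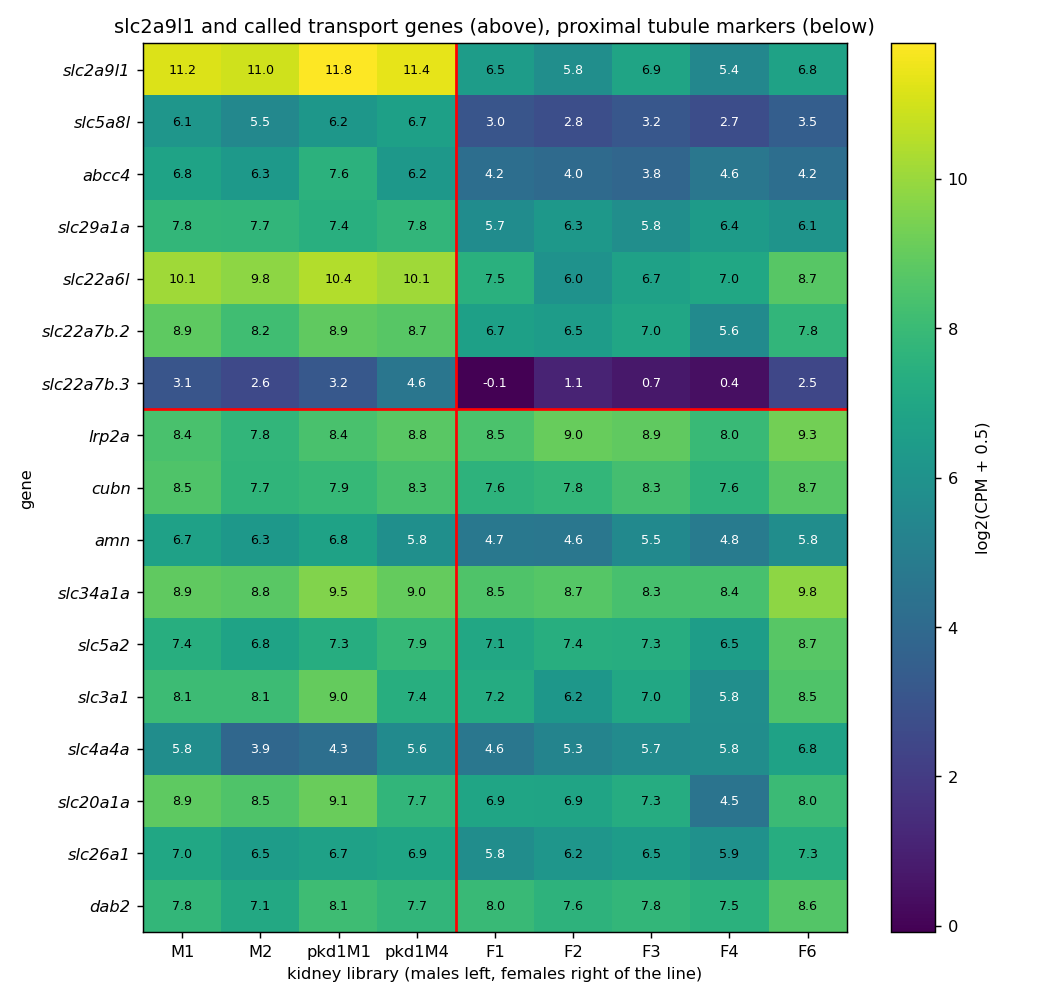
Level of *slc2a9l1* and the 6 called transport genes above the red line, and of 10 proximal tubule markers below it, as log2(CPM + 0.5) in each kidney library, with males left and females right of the vertical line. All 7 upper genes, chosen by their sex difference, separated the sexes, as did *amn* among the 10 markers. By the rule for a call, 0 of the 10 markers passed, and F6 had the largest sum of markers, 3694 CPM.

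Female kidneys had the higher level of *gda*, which encodes guanine deaminase, on chromosome 5 from 25708369 to 25723079. The male libraries held 1.22 CPM in pkd1M1, 1.83 in pkd1M4, 2.40 in M2 and 2.51 in M1. From lowest to highest, the females held 65.2 CPM in F6, 83.1 in F1, 159 in F3, 164 in F2 and 172 in F4. The groups did not overlap, and F6 was the female library nearest the males. The means were 1.99 ± 0.595 CPM in males (SD, n = 4) and 129 ± 50.5 CPM in females (SD, n = 5), a 65.0-fold higher level in females and a log2 fold change of -6.02 with a standard error of 0.43. With any library left out it lay between -6.19 and -5.84. The difference of means of log2(CPM + 2) was -4.94, a scale that shortens the change of a gene with so low a level in males.

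Of the purine nucleoside phosphorylase genes, *pnp5a* followed *gda* in direction. It lies on chromosome 7 from 6652967 to 6668424. Its level was 17.0 CPM in M2, 19.3 in M1, 19.6 in pkd1M4 and 24.1 in pkd1M1, and in females 35.1 in F6, 131 in F4, 134 in F1, 177 in F3 and 229 in F2. The male libraries lay close together, and F6 was again the lowest female library, above all males. The means were 19.999 ± 2.96 CPM in males (SD, n = 4) and 141 ± 71.3 CPM in females (SD, n = 5), a 7.05-fold higher level in females and a log2 fold change of -2.82 with a standard error of 0.45. Without the 2 male libraries named with pkd1 the log2 fold change was -2.96 and the gene no longer passed the adjusted p.

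The paralogs *pnp5b* and *pnp4a* had few counts in both sexes. *pnp5b*, on chromosome 2 from 58186846 to 58201173, had 1.56 CPM in M1, 1.86 in pkd1M1, 2.03 in pkd1M4 and 6.10 in M2, against 4.65 in F3, 5.23 in F1, 5.28 in F6, 6.09 in F2 and 10.4 in F4. M2 alone among the males reached the female range. The means were 2.89 ± 2.15 CPM in males (SD, n = 4) and 6.34 ± 2.35 CPM in females (SD, n = 5), a log2 fold change of -1.13 with a standard error of 0.50. With each library left out it ranged from -1.80 (without M2) to -0.88 (without F4). *pnp4a*, which marks the silvery iridophores of zebrafish skin, lies on chromosome 11 from 24251141 to 24299538. It had 0.812 CPM in pkd1M1, 0.833 in M2, 2.86 in M1 and 2.87 in pkd1M4, and 2.37 in F4, 2.90 in F2, 4.40 in F1, 4.78 in F6 and 7.17 in F3. F4 lay below both M1 and pkd1M4, so the sexes overlapped. The gene overlaps *si:dkey-76p14.2*, which was not called. The means were 1.84 ± 1.18 CPM in males (SD, n = 4) and 4.32 ± 1.88 CPM in females (SD, n = 5), or a log2 fold change of -1.23 with a standard error of 0.58. Iridophore markers summed to 39.1 to 62.1 CPM in males and 88.2 to 376 CPM in females, and without *gpnmb*, which macrophages also express, to 36.1 to 54.6 and 38.4 to 58.6 CPM, so that the rest of the list did not separate the sexes. Of the 8 tested, *tfec* and *gpnmb* were higher in females, *fhl2a* had a log2 fold change of 1.28 (adjusted p = 0.0168) with all males above all females, the other 5 did not pass, and *ltk*, a receptor that defines the lineage, was at 0 in 6 libraries, all males among them. The part of iridophores in the level of *pnp4a* was not tested.

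A further paralog, *pnp6*, ran the other way. It lies on chromosome 18 from 21257261 to 21271373. It averaged 634 ± 181 CPM in males (SD, n = 4) and 207 ± 112 CPM in females (SD, n = 5), which gave a log2 fold change of 1.62 with a standard error of 0.44 (adjusted p = 0.0349), though it was called in only 2 of the 9 fits with a library left out. The ratio of *pnp5a* to *pnp6* counts was 0.0263 in pkd1M4, 0.0299 in pkd1M1, 0.0332 in M1 and 0.0422 in M2. In females it was 0.0983 in F6, 0.685 in F3, 0.709 in F1, 1.29 in F2 and 2.54 in F4. The sexes did not overlap in either gene, in opposite directions, so the ratio had to separate them and adds no result of its own. F6 lay nearest the males. Reads shared by the paralogs were divided by estimation, and gene lengths were not used, so the ratio compares libraries and not the levels of the 2 genes.

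Macrophage markers were also measured. Their summed level was 725 to 1243 CPM in males and 1731 to 2780 CPM in females, with the 1731 in F6. Without *marco* the lowest female sum was 1554 CPM, in F4, and among females F6 was lowest in 3 of the 8 markers and F4 in 4. The largest part of each sum was *cd74a*, so the order of the sums leans on this gene. It had 456 to 817 CPM in males and 1154 to 2064 CPM in females, with the 1154 in F4 and 1256 in F6. Of the 8 markers, *mfap4* and *csf1ra* were higher in females, with log2 fold changes of -2.68 and -2.19, and 6 had an adjusted p under 0.05. *mfap4* had 11.2 to 52.8 CPM in males and 51.9 CPM in F6, the lowest female, while *marco*, a scavenger receptor of macrophages, did not pass with a log2 fold change of -0.05. No marker of the list was at 0 in any library. Neutrophil and B cell markers lay in the same direction. The 7 neutrophil markers had log2 fold changes from -1.54 to -0.36, with 1 called. The 5 B cell markers ran from -1.45 to -0.92, with 0 called. Erythroid markers went both ways, from -0.76 to 0.46, with 0 called. The part of macrophages, neutrophils or B cells in the levels of *gda* and *pnp5a* was not tested. The genes with levels most like *gda* were *grn2*, of the granulin family, *si:ch211-113d11.8* and *c2cd3*, a gene of the centriole, with Pearson correlations of 0.994, 0.992 and 0.991 over the 9 libraries. Once the mean of each sex was subtracted they were 0.783, 0.752 and 0.686. As these genes were picked as the highest among all tested, nothing is read from the size of the correlations. The log2 fold change of *c2cd3* was -1.14, below the limit for a call.

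**Figure D3:**
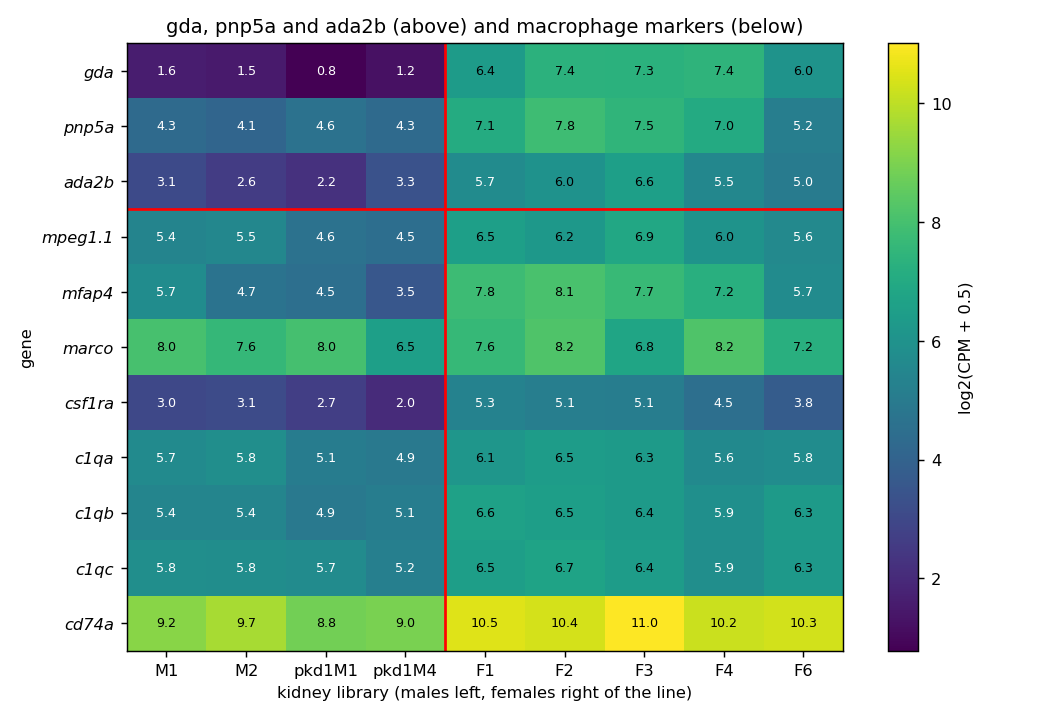
Level of *gda*, *pnp5a* and *ada2b* above the red line and of 8 macrophage markers below it, as log2(CPM + 0.5) in each kidney library, with males left and females right of the vertical line. The 3 upper genes were lowest in F6 among females, and 2 of the 8 markers, *mfap4* and *csf1ra*, were called as higher in females.

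The gene of the step that makes urate had few counts. *xdh*, on chromosome 17 from 33340675 to 33374538, had 4.74 CPM in pkd1M4, 2.65 in pkd1M1, 1.47 in M2 and 0 in M1, against 1.04 in F2, 3.66 in F3, 3.67 in F6, 3.81 in F1 and 5.56 in F4. A count of 0, if taken as reads, allows up to 0.130 CPM in M1. The sexes overlapped, with F2 below most males. The means were 2.21 ± 2.00 CPM in males (SD, n = 4) and 3.55 ± 1.61 CPM in females (SD, n = 5), and the log2 fold change of -0.68 was smaller than its standard error of 0.99. It ranged from -1.36 (without pkd1M4) to -0.27 (without M1) with each library left out and was -2.26 without both male libraries named with pkd1. The difference between the sexes in *xdh* was thus within the spread of the libraries. Xanthine dehydrogenase needs a molybdenum cofactor, and of 8 tested genes for that cofactor and the enzymes that carry it, 0 were called by edgeR's quasi-likelihood test, by DESeq2 or by edgeR's exact test. An unadjusted p under 0.05 was found for 2, 2 and 1 of them. The median log2 fold change of this list was 0.16. As the quasi-likelihood test called 6.54% of all genes, 0 of 8 is near that share, and nothing is read from it.

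Urate oxidase was found in 1 library of each sex. *uox*, on chromosome 11 from 8160894 to 8168011, had a count of 563 in pkd1M4, or 18.8 CPM, and a count of 134 in F2, or 3.78 CPM. It had 0 counts in the other 7 libraries, so that too few libraries held it for it to be tested. *samd13* overlaps *uox* at one edge and had 21.8 CPM in males and 16.5 CPM in females, with no call. *urad*, on chromosome 24 from 21687276 to 21689146, had 0 counts in all 9 libraries. If the estimated counts are taken as reads, this allows up to 0.0641 CPM in the deepest and 0.130 CPM in the shallowest library.

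The libraries with *uox* were those with the largest sum of liver markers in each sex. Summed levels of 11 liver markers were 497 to 2532 CPM in males and 336 to 1367 CPM in females, and the largest were those of pkd1M4 and of F2. Among males pkd1M4 was highest in 9 of the 11 markers, and among females F2 was highest in 8. The exceptions were *cyp7a1* and *f2* in both sexes and *fabp10a* in females. The fibrinogen gene *fga*, which encodes a clotting protein made by the liver, had 78.0 CPM in pkd1M4 and 23.4 CPM in F2, and no more than 2.57 CPM in any other library. *serpina1*, a liver protease inhibitor, had 58.5 CPM in pkd1M4 and 7.30 CPM in F2, and was at 0 in 3 of the other libraries. The part of liver RNA in the *uox* counts was not tested. Of the 11 markers, *cyp7a1* and *f2* were higher in males, with log2 fold changes of 6.16 and 3.30.

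Allantoicase, the enzyme that splits allantoate to urea and ureidoglycolate, was measured through *allc*, on chromosome 20 from 30355436 to 30370927. It had 19.1 CPM in M1, 31.7 in M2, 72.2 in pkd1M4 and 188 in pkd1M1, and 0 in F4, 5.89 in F2, 9.60 in F1, 9.76 in F3 and 29.8 in F6. F6 lay above M1, so the sexes overlapped, and the order of the libraries was not that of *uox*. The means were 77.9 ± 77.1 CPM in males (SD, n = 4) and 11.01 ± 11.2 CPM in females (SD, n = 5), so the SD was about as large as the mean in both sexes. This is a log2 fold change of 2.83 with a standard error of 1.13. It was 1.90 without pkd1M1, 3.63 without F6 and 1.202 without both male libraries named with pkd1.

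**Figure D4:**
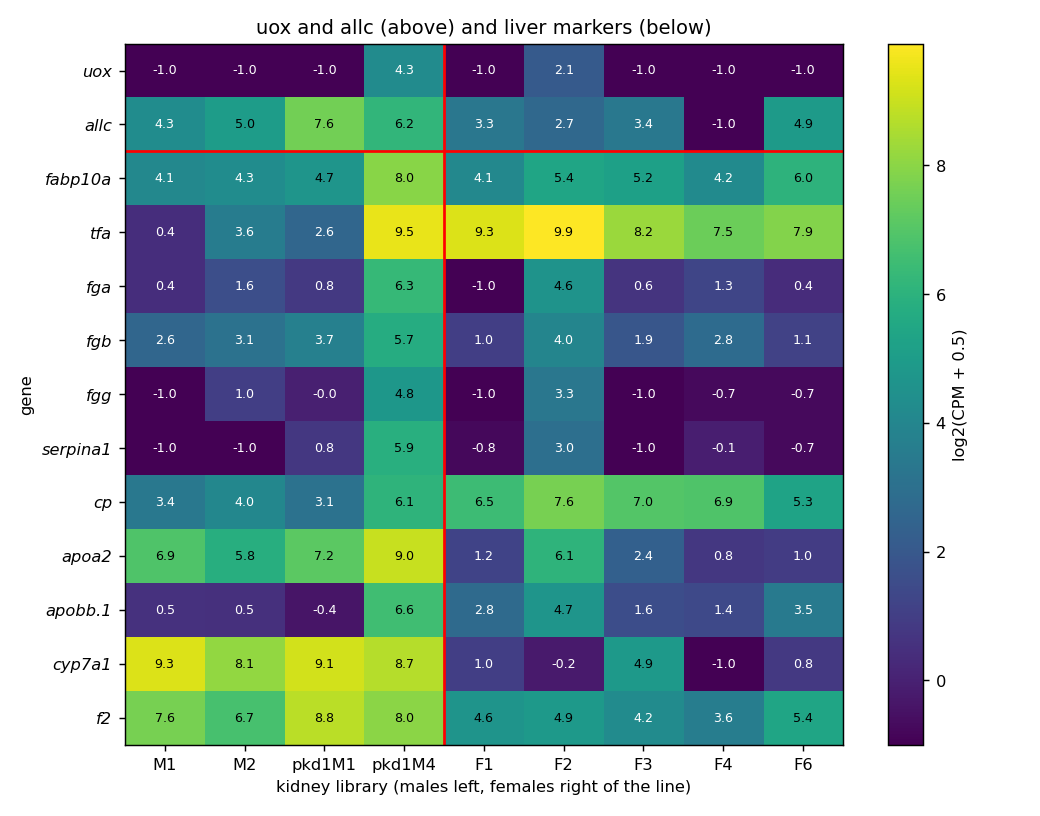
Level of *uox* and *allc* above the red line and of 11 liver markers below it, as log2(CPM + 0.5) in each kidney library, with males left and females right of the vertical line. *uox* was above 0 in pkd1M4 and F2, the library of each sex with the largest sum of liver markers, 2532 and 1367 CPM, while *allc* was highest in pkd1M1.

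Of 7 genes listed for the later steps of urate breakdown, 4 were tested, with a median log2 fold change of 0.52. Of these 1 was called, or 25%, against 6.54% of all genes. This was *agxtb*, for an aminotransferase that turns glyoxylate, a late product of the pathway, into glycine, on chromosome 2 from 22676743 to 22688651. It had 1078 ± 164 CPM in males (SD, n = 4) and 60.8 ± 59.4 CPM in females (SD, n = 5), which gave a log2 fold change of 4.15 with a standard error of 0.58 (adjusted p = 0.00154). The log2 fold change ranged from 3.92 (without F4) to 4.96 (without F6, the highest female library) with each library left out. Glyoxylate has other sources in the cell, so the gene is not particular to urate. Its paralog *agxta* had a log2 fold change of 1.37 (adjusted p = 0.0413), under the limit for a call. The other genes tested, *uraha* and *urahb*, had few counts, with means of 0.324 and 0.280 CPM in males and 0.412 and 0.621 CPM in females. Their log2 fold changes were -0.33 and -1.15, and neither was called. The called share of this list thus rests on *agxtb* alone.

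Genes that make purines from small precursors changed in both directions. Of 15 tested genes of de novo synthesis, 0 were called as higher in males and 2, or 13.3%, as higher in females, against 3.06% of all genes, and the median log2 fold change was 0.06. Besides, *paics* and *impdh2*, with log2 fold changes of 1.31 (adjusted p = 0.00356) and 0.93 (adjusted p = 0.0054), were higher in males with no overlap but under the limit for a call. In *impdh1a* all females lay above all males, with a log2 fold change of -2.43 that did not pass the adjusted p (0.0801). The 2 called were *gart*, for an enzyme of the early steps, on chromosome 1 from 960209 to 999556, and *atic*, for the enzyme of the last steps to inosinate, on chromosome 1 from 5437390 to 5504130. *gart* had 4.34 ± 1.87 CPM in males (SD, n = 4) and 15.3 ± 3.12 CPM in females (SD, n = 5), which gave a log2 fold change of -1.82 with a standard error of 0.35 (adjusted p = 0.00763). *atic* had 11.4 ± 1.91 and 43.9 ± 19.8 CPM, which gave a log2 fold change of -1.94 with a standard error of 0.33 (adjusted p = 0.00445). Without the 2 male libraries named with pkd1, *gart* was not called.

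Of 10 tested genes listed under salvage, which returns bases and nucleosides to nucleotides, 2 were higher in males and 0 in females. The median log2 fold change was 0.59. The list also holds *pnp6* and *pnp4b*, whose enzymes split nucleosides, and *tk2*, a thymidine kinase gene. Its shares and median are therefore not those of purine salvage alone. The shares are 20% and 0%, against 3.48% and 3.06% of all genes. Beside *pnp6* the gene called was *adka*, for adenosine kinase, on chromosome 13 from 24918096 to 25199260. It had 381 ± 183 CPM in males (SD, n = 4) and 98.2 ± 25.9 CPM in females (SD, n = 5), which gave a log2 fold change of 1.95 with a standard error of 0.30 (adjusted p = 0.00274).

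Of 31 tested genes that break down nucleotides and nucleosides, 2 were higher in males and 1 in females, with a median log2 fold change of -0.08. These are 6.45% and 3.23%, against 3.48% and 3.06% of all genes, so the share higher in females was near that of all genes. The one higher in females was *ada2b*, for an adenosine deaminase of the ADA2 type, an enzyme that in humans is secreted mainly by monocytes and macrophages. It lies on chromosome 4 from 5225552 to 5240128. It had 6.90 ± 2.41 CPM in males (SD, n = 4) and 57.2 ± 23.3 CPM in females (SD, n = 5), which gave a log2 fold change of -3.05 with a standard error of 0.37 (adjusted p = 0.000825). The part of macrophages in its level was not tested. The 2 higher in males, *enpp1* and *entpd8*, encode enzymes that cleave nucleotides outside the cell. *enpp1* had a log2 fold change of 1.53 with a standard error of 0.31 (adjusted p = 0.00977), and *entpd8* one of 1.67 with a standard error of 0.41 (adjusted p = 0.0226). The value of *entpd8* was 1.06 without pkd1M1. They were called in 5 and 7 of the 9 fits with a library left out, and in neither case without the 2 male libraries named with pkd1.

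Over these lists of purine and urate genes beside the members, 14 of 89 tested genes were called, or 15.7%, against 6.54% of all genes tested. Among them, 11 were higher in males and 3 in females, or 12.4% and 3.37%, against 3.48% and 3.06% of all genes, and the median log2 fold change was 0.15. The lists were chosen with earlier results of these libraries known, and no test of the lists was made.

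**Figure D5:**
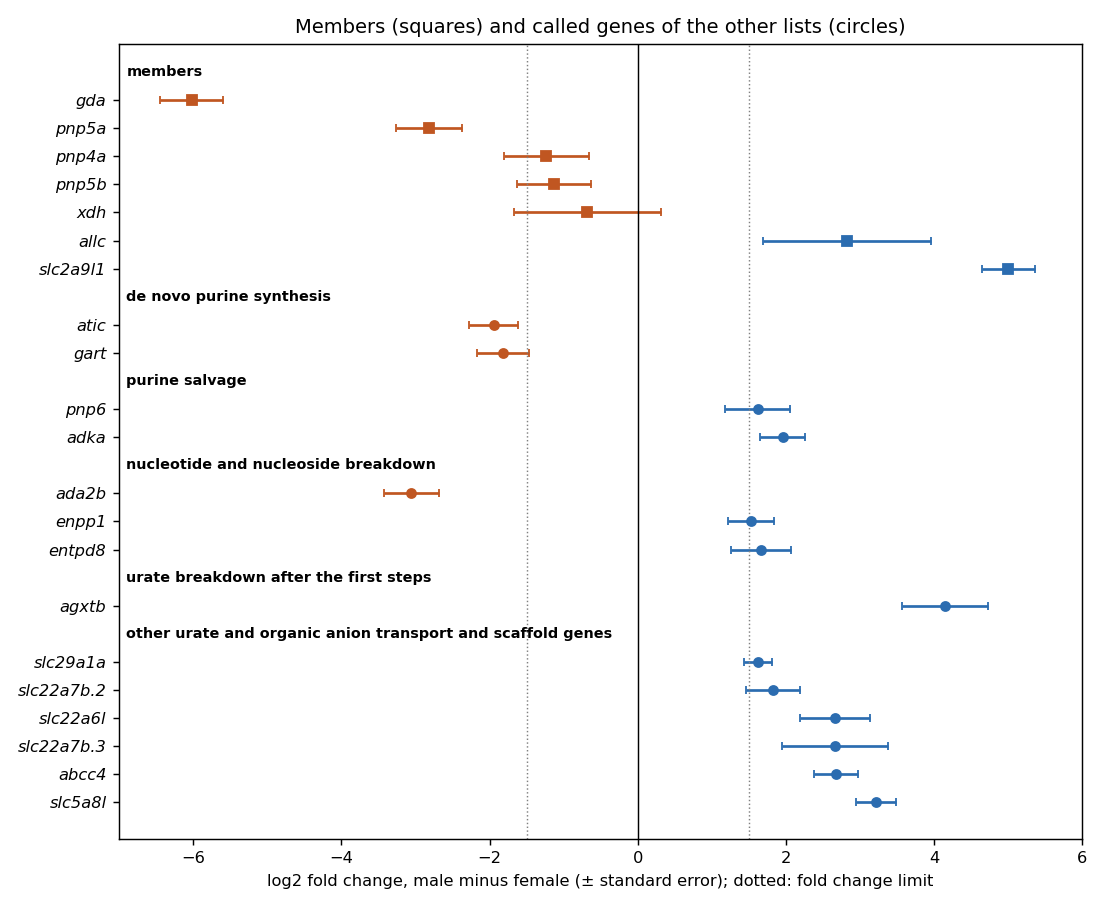
Log2 fold change, male minus female, with its standard error, of the 7 tested members (squares) and the 14 called genes of the other lists (circles), grouped by list, where dotted lines mark the limit of 1.5 in each direction. Values right of 0 are higher in males, from *slc2a9l1* at 5.004 to *gda* at -6.02.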

How the data were processed

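The authors assigned paired-end reads to zebrafish transcripts with the pseudoaligner Kallisto, which splits reads between similar transcripts by estimation, and summed them to genes with tximport. The deposited values are estimated counts, scaled from TPM and held as whole numbers. The methods name GRCz11 and the labels GRCz10. The last gene on chromosome 4 ends at 78068331, beyond that chromosome in GRCz10, so coordinates are those of GRCz11. Whether a gene's length enters its value is not settled, so levels were compared between libraries only. Of the columns with values per sample, 0 were left unused. Those named pkd1M1, pkd1M4 and F6 cannot be tied to 1 labelled sample and stand for their sex alone. Within a sex, all pairs of libraries differed beyond counting noise.

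Low genes were removed with filterByExpr, and the sexes were compared over 9 libraries by edgeR 4.0.16 (R 4.3.3) with TMM and its quasi-likelihood test, with Benjamini-Hochberg adjustment over all genes tested. The standard error of a log2 fold change is its size over the square root of the F statistic of that test. For the members it is given as a description. Limits set by a count of 0 are 3 counts on the same TMM scale and cover counting error only. They hold only where the estimated counts stand for reads. The members and all gene lists, marker lists included, were chosen with earlier results of these data known. Named are all members, the called genes of the other lists in full only for the 10 of smallest p, with *slc22a7b.3*, *pnp6*, *enpp1* and *entpd8* added after their values were seen, the nearest tested genes, and the 3 genes most like *slc2a9l1* and *gda*. Alternatives were DESeq2 1.42.0, edgeR's exact test, other filters and scalings, left-out libraries and a replicate block, of which 2 sets were chosen after seeing the data. The fit was tested on simulated data. Tables and figures were made with Python 3.11.15, pandas 2.3.3 and matplotlib 3.10.9.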

Additional observations from a re-analysis of the deposited data

Results flagged for a closer look

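A library was set apart where its gap to the next library of its sex took up most of the range of that sex (Dixon's criterion at 95%). This held in 7 of the 44 groups examined among the members and the called genes of the other lists. Chance gives about 1 in 20 only where values are normally distributed, which CPM values need not be. Each library set apart was the highest of its sex, so the count is not read against that rate. *uox* was at 18.8 CPM in pkd1M4 and at 3.78 CPM in F2, with 0 in all other libraries. *pnp5b* was at 6.10 CPM in M2, above the other males, and at 10.4 CPM in F4, above the other females. *entpd8* was at 189 CPM in pkd1M1, the highest male library. Among females, F6 stood apart in *agxtb* at 165 CPM and in *slc22a7b.3* at 5.01 CPM, toward the male range in both.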

How the results depend on the processing

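The number of genes called among all genes, 1448, was 859 with the replicate number as a block (M1, M2, F1 and F2 only), 355 for the same 4 libraries without the block, 635 without the males named with pkd1, 837 without pkd1M4 and F2 and 2928 with no limit on the fold change. It ranged from 1086 (without pkd1M1) to 1707 (without F6). The members past both thresholds, 3 in all, were 3 with the block, 2 without the males named with pkd1 and between 3 and 4 with each library left out. The other purine and urate genes called, 14 in all, were 10 with the block, 7 for the same 4 libraries without it, 7 without the males named with pkd1, 27 with no limit on the fold change, and from 10 (without F1) to 17 (without F6) with each library left out. The correlation of deviations from the mean of the sex was 0.03 for M1 and F1 and -0.04 for M2 and F2. For unlike numbers it was 0.03 (M1 and F2) and -0.002 (M2 and F1). With so few libraries, and more genes called with the block than without it, these values do not settle whether equal numbers pair the libraries. No value changed direction under any alternative run. The 10 other purine and urate genes of smallest p were called in all 9 fits with a library left out. Low counts limit what can be said of *xdh*, *pnp4a*, *pnp5b*, *uox* and *urad*. The libraries without block, and those without pkd1M4 and F2, were compared after seeing the data.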

Other observations

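Some purine genes had an adjusted p under 0.05 below the limit on the fold change, and those given here were chosen after their values were seen. The adenosine deaminase genes *ada* and *ada2a* had 35.9 ± 9.39 and 10.04 ± 3.28 CPM (SD, n = 4) in males and 76.8 ± 10.3 and 25.8 ± 4.22 CPM (SD, n = 5) in females. Their log2 fold changes were -1.10 and -1.36, with adjusted p = 0.00677 and 0.00795 in edgeR's quasi-likelihood test. The adenosine deaminase-like gene *adal*, with few counts, did not pass, at -1.25 (adjusted p = 0.647). The second adenosine kinase gene, *adkb*, had 42.4 ± 9.74 CPM in males and 25.1 ± 4.97 CPM in females, a log2 fold change of 0.76 (adjusted p = 0.0373). Males and females did not overlap in *ada*, *ada2a* and *adkb*, as in 16.5% of all genes tested. Of the bases, adenine is salvaged through *aprt*, with a log2 fold change of -1.14 (adjusted p = 0.0055), and hypoxanthine and guanine through genes that include *hprt1l*, with 1.14 (adjusted p = 0.0339), and *hprt1*, with 0.42 (adjusted p = 0.428), which did not pass. The nucleoside transporter gene *slc29a2*, at -1.25 (adjusted p = 0.00574), was higher in females, opposite to *slc29a1a*.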
